A study of Mus musculus with 56 samples.

Results

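Hair germ stem cells (HGSC) were compared with epidermis (Epi), both sorted by fluorescence from the dorsal skin of mice aged 22 days after birth (postnatal day 22) and profiled by bulk RNA sequencing. The skin had been divided into 4 zones. The libraries were chosen by their population label, 8 of HGSC and 8 of Epi, with 2 replicates from each of the 4 zones, so 16 of the 56 libraries of the study entered the comparison. HGSC and Epi shared genotype and age: CD1 mice, an outbred stock, of the triple reporter line K14-H2BGFP;Crabp1-GFP;Lef1-RFP. In it a green histone is driven by the keratin 14 promoter, which is active in basal cells of epidermis and follicle, beside a green Crabp1 and a red Lef1 reporter. How the gates were set, where each zone lay and whether replicate numbers link animals is not given in the sources used here. Replicates are biological by the labels, which enter the zone as the batch, so that effects of zone and of batch cannot be told apart.

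The hair germ is the small cluster of epithelial cells between the bulge and the dermal papilla of the resting hair follicle. It is the first part of the follicle to divide when a new hair cycle begins, and its descendants build the hair shaft and the inner root sheath. The epidermis between follicles is renewed by basal keratinocytes that anchor to the basement membrane, leave it, and switch to keratin 1 and keratin 10 in the suprabasal layers before they cornify. Both tissues derive from the same embryonic ectoderm and share keratin 5 and keratin 14.

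Total depth was 8.61 to 30.1 M reads in HGSC and 9.01 to 50.2 M in Epi, the deepest being Epi zone 3 replicate 2. Levels are in RPKM, which scales reads by gene length and by the total of the library, so that genes can be compared per length. Replicates of a zone correlated at r = 0.909 to 0.945 in HGSC and 0.841 to 0.908 in Epi, over the tested genes, which are not independent replicates. For all 8 HGSC libraries the most similar of the other 55 libraries was another HGSC library. The same held for 7 of 8 Epi libraries, and Epi zone 3 replicate 2 was closest to a library of follicle cells (Foll), although its mean correlation was 0.914 with Epi and 0.895 with Foll. In sorted bulk samples, fewer cells of a type and less RNA per cell cannot be told apart.

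The 3 reporter genes served as a check of the sort. Krt14 stood at 287, 399 and 517 RPKM in HGSC (lowest, median and highest of 8 libraries, the order used throughout), against 1038, 1886 and 2266 in Epi. Lef1 stood at 48, 63.3 and 78.3 RPKM in HGSC and 0.08, 2.96 and 12.8 in Epi. The populations did not overlap in either gene. Crabp1 was low in both, at most 2.04 RPKM in HGSC and 0.835 in Epi. Since the reporters could have set the gates, these levels are no findings.

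The populations carried the markers of their names, although Lef1, the gene behind 1 reporter, is among the hair germ markers. The summed level of 22 hair germ markers was 1358, 1659 and 2085 RPKM in HGSC, against 228, 322 and 741 in Epi. For 20 markers of suprabasal epidermis the sums were 218, 306 and 538 RPKM in HGSC and 4688, 6247 and 7407 in Epi. Neither sum overlapped between populations. Without Lef1 the hair germ sums were 1301, 1604 and 2024 RPKM in HGSC and 227, 319.9 and 728 in Epi. The highest hair germ sum of Epi was that of zone 2 replicate 1, and the 2 highest suprabasal sums of HGSC were those of zone 4, at 505.6 and 538 RPKM. The part of such a mixture in other results was not tested. Without Epi zone 2 replicate 1 the hair germ counts given further on were unchanged, as were the suprabasal counts without either HGSC library of zone 4.

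**Figure D1:**
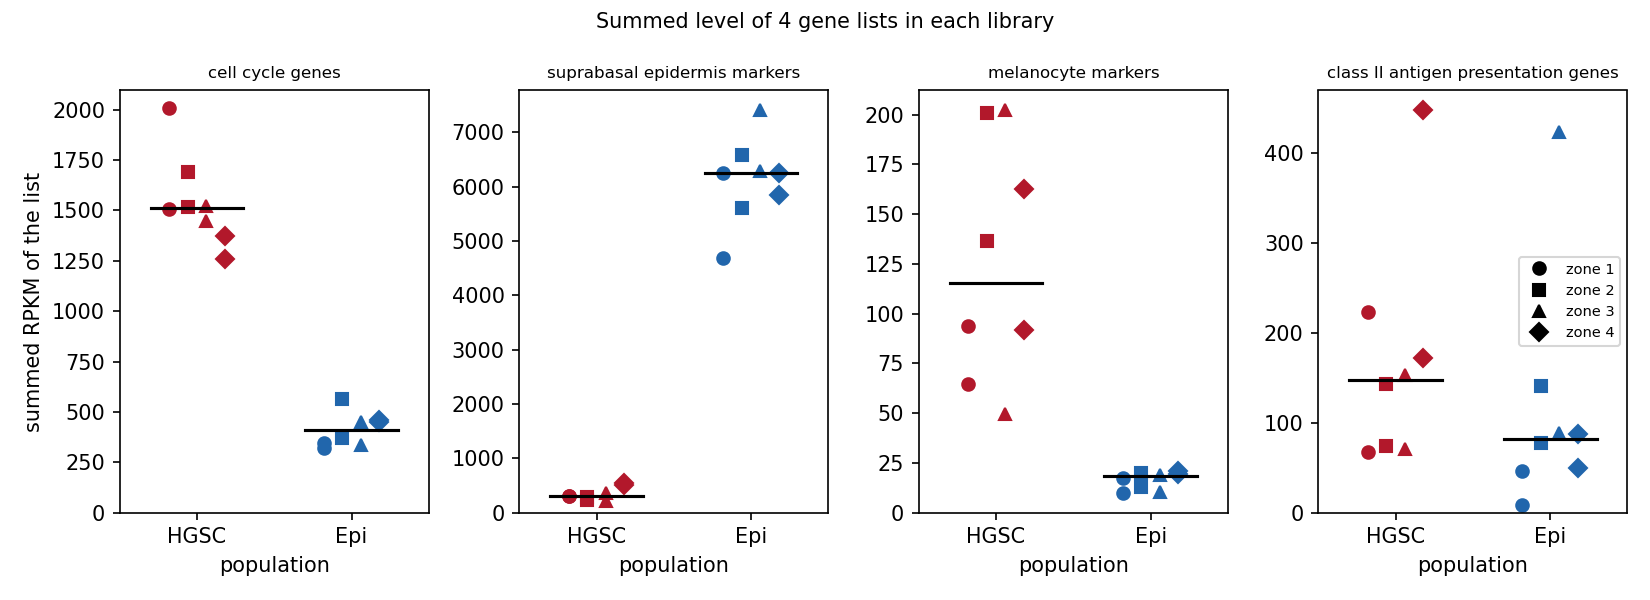
Summed RPKM of 4 gene lists in each of the 8 HGSC and 8 Epi libraries, with a symbol per zone and a bar at the median. Cell cycle, suprabasal and melanocyte sums did not overlap between populations, while class II antigen presentation sums did, with 1 library above 400 RPKM in each.

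Across the transcriptome, HGSC carried high levels of hair lineage regulators, hedgehog pathway genes and cell cycle genes, and Epi carried the genes of the differentiating and barrier-forming keratinocyte. Of 16731 tested genes, 2228 were higher in HGSC (13.3%) and 1233 were lower (7.37%), which makes 3461 called genes (20.7%). A call required a limma adjusted p (Benjamini-Hochberg) under 0.05 and a difference in log2(RPKM + 1), averaged over the 4 zones, of at least 1. A difference on this scale, HGSC minus Epi, understates the change of genes with low levels. The balance of directions depended on scaling, with 64.4% of calls higher in HGSC on the deposited values, 50.5% after quantile scaling (1508 higher and 1480 lower) and 49.7% after median-of-ratios scaling (1509 and 1526). The median difference of all tested genes was 0.13, 0.013 and 0.023 on these scales.

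**Figure D2:**
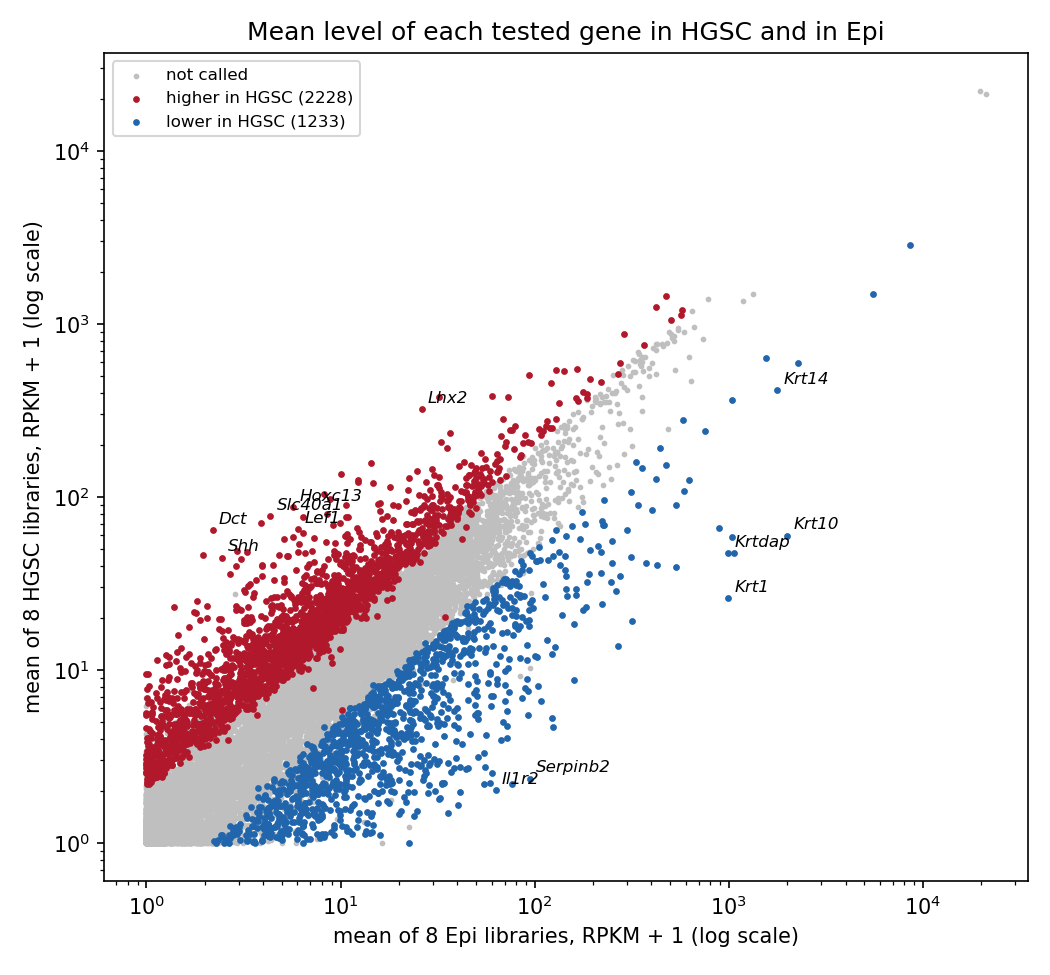
Mean level of each of the 16731 tested genes, with the 8 HGSC libraries on the vertical and the 8 Epi libraries on the horizontal axis, both as RPKM + 1 on a log scale. Red points are the 2228 genes called higher in HGSC and blue points the 1233 called lower, and the genes lying farthest below the diagonal include Krt1, Krt10 and Serpinb2.

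Of the 3461 called genes, 3237 had the same sign in all 4 zones and 2252 in all 8 pairs of libraries with the same zone and replicate number. Calls rest on the average of the same zones, so this agreement is in part set by the selection. Large differences were more often towards Epi, since 133 called genes were lower in HGSC by at least 3 on the log2 scale and 69 were higher by as much. In 963 genes (5.76%) every HGSC library lay above every Epi library, and in 627 (3.75%) every HGSC library lay below.

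The 12 leading genes towards HGSC had Dct (5.05), Basp1 (4.81) and Slc40a1 (4.63) at their head, and secreted proteins and transcriptional regulators were among the others. Shh, the hedgehog ligand that hair germ cells send to the dermal papilla, stood at 20.4, 43.3 and 62.1 RPKM in HGSC against 0, 0.813 and 7.21 in Epi (log2 difference 4.51, SE 0.28, adjusted p = 1.35e-14). Scube3, a secreted protein with EGF-like repeats, stood at 30.6, 49.1 and 65.9 RPKM in HGSC against 0.0499, 0.695 and 7.00 in Epi (4.47, SE 0.32, adjusted p = 3.99e-13). Neither gene overlapped between populations, and Shh was at 0 in the lowest Epi library. Lhx2, a LIM homeodomain factor of follicle stem cells, had 268, 313 and 385 RPKM in HGSC and 1.29, 16.7 and 74.7 in Epi (4.32, SE 0.39, adjusted p = 6.33e-11). Hoxc13, a homeodomain factor that activates hair keratin genes, had 68.5, 84.6 and 117 RPKM in HGSC and 0.409, 2.69 and 19.5 in Epi (4.41, SE 0.43, adjusted p = 3.00e-10). The lowest HGSC library was above the highest Epi library in both. Bach2, a BTB and leucine zipper regulator best known in lymphocytes, had 101, 136 and 164 RPKM in HGSC and 1.53, 7.41 and 19.8 in Epi (4.06, SE 0.32, adjusted p = 3.26e-12). Lbh, a transcriptional cofactor, had 69.1, 103 and 125 RPKM in HGSC and 0.13, 4.41 and 20.4 in Epi (4.10, SE 0.31, adjusted p = 8.03e-13).

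The leading genes of HGSC also encode membrane and matrix proteins, among them Basp1 and Slc40a1. Fras1, a matrix protein of the embryonic epithelial basement membrane, stood at 54.6, 71 and 84.6 RPKM in HGSC and 0.192, 2.23 and 8.1 in Epi (4.40, SE 0.25, adjusted p = 6.54e-16). Slc40a1, the iron exporter ferroportin, stood at 36.2, 77 and 126 RPKM in HGSC and 0, 2.23 and 15.4 in Epi (4.63, SE 0.34, adjusted p = 3.97e-13). Slc7a2, a transporter of arginine and lysine, was the most abundant of the leading genes, at 314, 359 and 504 RPKM in HGSC and 0.926, 24.2 and 93.3 in Epi (4.16, SE 0.31, adjusted p = 9.22e-13). None of these overlapped between populations. Mme, the membrane metallopeptidase neprilysin, stood at 20.4, 44.1 and 65.3 RPKM in HGSC and 0.0625, 1.23 and 9.54 in Epi (4.19, SE 0.30, adjusted p = 3.00e-13). Basp1, a membrane-bound protein of growing nerve endings, stood at 29.5, 45 and 57.9 RPKM in HGSC and 0, 0.3 and 5.03 in Epi (4.81, SE 0.26, adjusted p = 1.76e-16). Dct, a melanin synthesis enzyme and thus a marker of another cell type, had the largest difference of the 12 leading genes of HGSC, with 28, 63.6 and 124 RPKM in HGSC and 0.16, 0.227 and 5.69 in Epi (5.05, SE 0.42, adjusted p = 8.74e-12), and is taken up with the melanocyte markers.

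**Figure D3:**
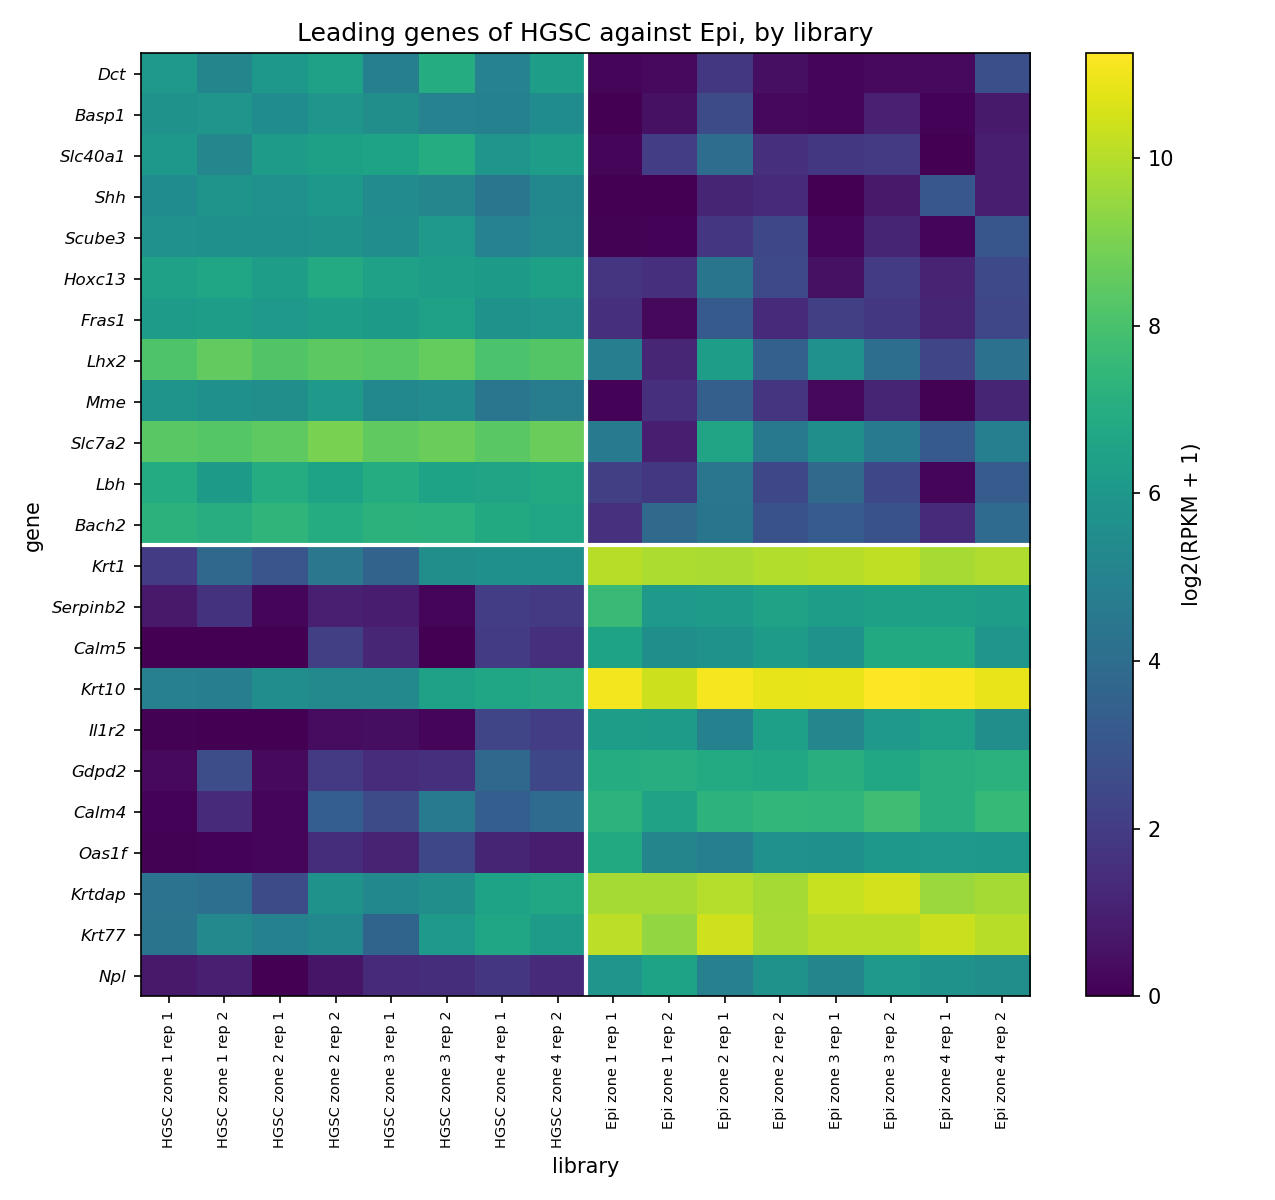
Levels as log2(RPKM + 1) of the 12 leading genes towards HGSC and 11 towards Epi, with 8 HGSC libraries on the left and 8 Epi libraries on the right of the white line. The upper 12 genes are high in every HGSC library and the lower 11 in every Epi library, with Krt1 and Krt10 brighter in HGSC zone 4 than in HGSC zone 1.

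Keratins and calmodulin-like genes of the differentiating keratinocyte were among the genes leading towards Epi. Krt1, the type II keratin of the suprabasal layers, stood at 3.01, 16.8 and 49.7 RPKM in HGSC against 866, 984 and 1158 in Epi (-5.74, SE 0.46, adjusted p = 3.10e-12). Its type I partner Krt10 stood at 26.7, 41.9 and 111 RPKM in HGSC against 1360.4, 1995 and 2438 in Epi (-5.23, SE 0.37, adjusted p = 2.58e-13). Both were detected in every HGSC library, and neither overlapped between populations. Krt77, a further type II keratin, stood at 11.3, 37.6 and 95.8 RPKM in HGSC and 693, 1057 and 1371 in Epi (-4.74, SE 0.60, adjusted p = 6.91e-08). Krtdap, a protein associated with keratinocyte differentiation, stood at 5.06, 41.6 and 105 RPKM in HGSC and 758, 854 and 1449.5 in Epi (-4.82, SE 0.64, adjusted p = 2.04e-07). Calm4, a calmodulin-like protein of skin, stood at 0.0732, 7.12 and 22.9 RPKM in HGSC and 87.8, 160.5 and 220.2 in Epi (-4.84, SE 0.60, adjusted p = 4.77e-08). Calm5, its close relative, stood at 0, 0.639 and 3.45 RPKM in HGSC and 48, 64.9 and 113 in Epi (-5.31, SE 0.47, adjusted p = 3.75e-11), and the pair did not overlap between populations. Reads of close relatives can be split by counting, so the balance between these keratin and calmodulin-like paralogs is uncertain. Serpinb2, an inhibitor of serine proteases, had the smallest adjusted p of the 12, with 0.0995, 0.924 and 3.17 RPKM in HGSC and 67, 80.1 and 198 in Epi (-5.40, SE 0.29, adjusted p = 2.15e-16).

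The other leading genes of Epi encode a receptor and enzymes. Il1r2, the decoy receptor that binds interleukin 1 without signalling, stood at 0, 0.224 and 4.17 RPKM in HGSC and 29.5, 69.5 and 85.6 in Epi (-5.20, SE 0.35, adjusted p = 9.57e-14). It was low in all HGSC libraries and did not overlap between populations. Gdpd2, a glycerophosphodiester phosphodiesterase, stood at 0.232, 2.31 and 13.1 RPKM in HGSC and 105, 125 and 143 in Epi (-5.15, SE 0.34, adjusted p = 3.46e-14). Npl, a lyase of sialic acid breakdown, stood at 0, 1.27 and 2.45 RPKM in HGSC and 28.5, 53.2 and 91.8 in Epi (-4.64, SE 0.45, adjusted p = 2.81e-10). Oas1f, of the oligoadenylate synthetase family, stood at 0.0453, 1.05 and 4.35 RPKM in HGSC and 28, 56.5 and 112 in Epi (-4.84, SE 0.34, adjusted p = 2.20e-13). It has several close copies among which reads could have been split, so its level is uncertain.

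Some of these genes are neighbours in the genome (GRCm38, GENCODE M21 genes). Krt1 (chr15:101845426-101850794) and Krt77 (chr15:101858731-101869705), both protein-coding and on the minus strand, lie side by side in the type II keratin cluster. Calm4 (chr13:3837757-3838673) and Calm5 (chr13:3854173-3854761), both protein-coding and on the plus strand, lie side by side on chromosome 13, with no other protein-coding gene between them. A noncoding gene overlaps Calm4 in this annotation, so some of its reads may be shared.

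The leading genes were then placed beside the other epithelial populations, bulge stem cells (BuSC) and Foll. Comparisons that share a population share its libraries, so their values only stand side by side. BuSC was above HGSC in the dermal fibroblast markers Dcn, Col3a1 and Col5a1, with HGSC minus BuSC at -4.35, -4.77 and -1.18, and in Crabp1 (-7.58). The part of dermal cells in the BuSC values was not tested. Of the 12 genes leading towards HGSC, 10 were called higher in HGSC than in BuSC (background 2.03% of tested genes higher, 3.82% lower), and all 12 were called higher in HGSC than in Foll (5.46% and 6.31%). Lhx2 and Slc7a2 were the exceptions in BuSC. Shh averaged 43.7 ± 12.8 RPKM in HGSC, 0.492 ± 0.43 in BuSC and 6.15 ± 6.61 in Foll (SD, n = 8 each), and HGSC minus BuSC was 4.89 (adjusted p = 3.60e-15). Lhx2 averaged 321 ± 42.9 RPKM in HGSC and 193 ± 37.3 in BuSC, a difference of 0.74 that was not called (adjusted p = 0.265). So Shh stood far above the bulge level in HGSC, and Lhx2 did not pass the test against it. Bach2 averaged 134 ± 21.3 RPKM in HGSC and 14.2 ± 3.29 in BuSC (3.17, adjusted p = 3.02e-09). Slc7a2 averaged 377 ± 63.4 RPKM in HGSC and 198 ± 40.7 in BuSC (0.94, adjusted p = 0.0471), which fell short of a difference of 1.

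The suprabasal keratins of the Epi side were also abundant in Foll. Of the 12 genes leading towards Epi, 7 were called higher in Epi than in Foll (background 1.92% higher, 5.86% lower) and all 12 higher in Epi than in BuSC (7.02% and 12.9%). The 5 not called against Foll were Krt1, Krt10, Krt77, Krtdap and Calm4. Krt10 averaged 1991 ± 331 RPKM in Epi and 1166 ± 704 in Foll, and Epi minus Foll was 0.99 (adjusted p = 0.0642). Krt1 averaged 995 ± 95.2 RPKM in Epi and 512 ± 345 in Foll (1.23, adjusted p = 0.0608). Neither difference was called. Serpinb2 averaged 93.5 ± 42.6 RPKM in Epi and 27.1 ± 13.9 in Foll, and was called higher in Epi (1.83, adjusted p = 2.82e-05). Il1r2 averaged 62 ± 21.7 RPKM in Epi and 16.7 ± 15.8 in Foll, and was also called (2.24, adjusted p = 2.92e-05). HGSC minus BuSC was 2.74 for Krt1 (adjusted p = 3.47e-05), with a BuSC mean of 3.00 ± 4.34 RPKM, so the low level of HGSC was above that of BuSC.

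Hair germ markers were mostly higher in HGSC. Of 21 tested markers of 22, 17 were called higher and 1 lower, with a median difference of 2.49 beside 0.13 for all tested genes and 16 higher and 1 lower after either scaling. Pdgfa, a growth factor that epithelium sends to the dermis, stood at 360.5, 489.5 and 772 RPKM in HGSC and 60.7, 82 and 188 in Epi (2.49, SE 0.22, adjusted p = 4.47e-11). Foxi3, a forkhead factor of hair and teeth, stood at 94, 149 and 258 RPKM in HGSC and 2.25, 9.05 and 45.6 in Epi (3.90, SE 0.39, adjusted p = 7.22e-10). Cdh3, the P-cadherin of the hair germ, stood at 69.5, 100.3 and 140.4 RPKM in HGSC and 25.7, 35.8 and 41.4 in Epi (1.54, SE 0.20, adjusted p = 1.04e-07). None of the 3 overlapped between populations. Lgr5, an R-spondin receptor of cycling follicle cells, stood at 37.1, 65.1 and 90.4 RPKM in HGSC and 2.32, 7.81 and 37.8 in Epi (2.72, SE 0.32, adjusted p = 1.47e-08), and the highest Epi library just reached the lowest of HGSC. Wnt10a was the 1 marker called lower, at 0.554, 3.38 and 5.89 RPKM in HGSC and 6.41, 12.5 and 16.9 in Epi (-1.57, SE 0.34, adjusted p = 3.06e-04), while its paralog Wnt10b was called higher (1.75). The markers set against BuSC divided. HGSC minus BuSC was called for Shh (4.89), Scube3 (4.42), Edar (2.43), Hoxc13 (1.95), Dlx3 (1.76) and Lef1 (1.71). It was not called for Bambi (0.58), Foxi3 (0.11), Tgfb2 (0.02), Gli1 (-0.01) or Lgr5 (-0.76). The latter thus did not separate HGSC from BuSC.

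Transcription factors of the hair lineage followed the same direction with exceptions. Of 17 tested members of 20, 10 were called higher and 2 lower in HGSC, with a median of 1.66 and 10 higher and 4 lower after either scaling. Dlx3, a homeodomain factor of the hair matrix, stood at 28.1, 56.6 and 111 RPKM in HGSC and 0, 2.22 and 14.4 in Epi (3.95, SE 0.40, adjusted p = 8.64e-10). Gata3, which specifies the inner root sheath and also acts in the epidermis, went the other way, at 45.5, 67.9 and 86.7 RPKM in HGSC and 188, 231 and 262 in Epi (-1.73, SE 0.18, adjusted p = 2.09e-09). Neither overlapped between populations. Of 20 follicle stem cell factors, 9 were called higher and 2 lower, with 8 higher and 3 lower after quantile scaling and 7 and 3 after median-of-ratios scaling. Runx1, which promotes follicle stem cell activation, stood at 57.3, 74.4 and 92.4 RPKM in HGSC and 3.41, 8.38 and 26.3 in Epi (3.03, SE 0.20, adjusted p = 3.27e-14). Sox9, a factor of bulge and outer root sheath, overlapped widely, at 12.3, 20.1 and 45.4 RPKM in HGSC and 3.19, 16.7 and 37.1 in Epi (0.38, SE 0.28, adjusted p = 0.323), and was not called.

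Bulge markers divided between the populations, although the bulge adjoins the hair germ. Of 19 tested markers of 20, 8 were called higher and 3 lower in HGSC, with a median of 0.47 and the same counts after quantile and after median-of-ratios scaling. Fbln1, a matrix protein, averaged 44.6 ± 5.4 RPKM in HGSC and 4.3 ± 4.19 in Epi (3.45, SE 0.27, adjusted p = 1.50e-12). Tbx1, a T-box factor of follicle stem cells, averaged 32.3 ± 10.7 RPKM in HGSC and 6.74 ± 5.71 in Epi (2.39, SE 0.35, adjusted p = 1.37e-06). Postn, a matrix protein of stem cell niches, averaged 26.4 ± 22.2 RPKM in HGSC and 80.3 ± 26.3 in Epi (-1.98, SE 0.29, adjusted p = 1.07e-06), and so went the other way. Cd34, the surface marker by which bulge cells are often sorted, was at 0.156, 0.336 and 0.798 RPKM in HGSC and 0.205, 0.323 and 1.95 in Epi, low and overlapping in both. In BuSC it averaged 62.7 ± 27.3 RPKM (SD, n = 8).

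Regulators of epidermal differentiation were called lower more often than higher in HGSC. Of 22 members, 7 were called lower, 1 higher and 14 neither, with a median of -0.63 and 1 higher and 9 lower after either scaling. Klf5, a zinc-finger factor of proliferating epithelium, stood at 14.5, 24 and 48 RPKM in HGSC and 143, 279 and 331 in Epi (-3.26, SE 0.21, adjusted p = 3.41e-14). Klf4, needed for barrier formation, averaged 34 ± 5.93 RPKM in HGSC and 144 ± 32.6 in Epi (-2.04, SE 0.17, adjusted p = 6.70e-12). Grhl1, Grhl3 and Zfp750, further barrier regulators, were called lower, with differences of -1.56, -1.72 and -1.33. Prdm1, a transcriptional repressor that promotes terminal differentiation, in epidermis as in other tissues, was the 1 called higher, at 1.67, 5.52 and 8.15 RPKM in HGSC and 0.0465, 0.799 and 2.98 in Epi (1.66, SE 0.28, adjusted p = 9.90e-06), with overlap. Trp63, the master factor of stratified epithelia, differed by -0.32 (SE 0.21, adjusted p = 0.265) and was not called.

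The hedgehog pathway differed at ligand, receptor and target level. In the absence of ligand the receptor Ptch1 holds Smo inactive, and ligand binding frees Smo to activate the Gli factors, which in turn induce Gli1 and Ptch1. Of 20 tested members of 21, 9 were called higher and 3 lower in HGSC, with a median of 0.79 and 8 higher and 3 lower after either scaling. Beside the ligand Shh, the receptor and target Ptch1 stood at 116, 149.6 and 209 RPKM in HGSC and 18.3, 31.7 and 82.1 in Epi (2.05, SE 0.21, adjusted p = 1.74e-09). Gli1 stood at 50.9, 63.9 and 94.3 RPKM in HGSC and 0.322, 6.15 and 28.6 in Epi (3.34, SE 0.24, adjusted p = 4.11e-13). Both targets were higher in every HGSC library than in any Epi library. The mediator Gli2 stood at 27.9, 39.3 and 45.1 RPKM in HGSC and 1.97, 6.23 and 22.2 in Epi (2.30, SE 0.26, adjusted p = 6.34e-09), and Gli3 was called higher by 1.38. Smo itself differed by 0.56 (adjusted p = 0.0124) and was not called. The coreceptor Cdon was lower, at 5.44, 9.14 and 19.6 RPKM in HGSC and 15.3, 33.9 and 46.3 in Epi (-1.57, SE 0.19, adjusted p = 4.96e-08), with overlapping populations. Gas1, a further coreceptor, and Scube2, a secreted factor that helps release the ligand, were called lower, with differences of -1.04 and -1.27. The Gas1 call was lost, at -0.92 to -0.98, without HGSC zone 2 replicate 1, HGSC zone 3 replicate 2 or Epi zone 1 replicate 2, zone 3 replicate 1 or zone 4 replicate 1.

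Wnt ligands differed in both directions. Of 18 tested ligands and R-spondins of 23, 3 were called higher and 6 lower, with the same counts after quantile and after median-of-ratios scaling. The median of 0.03 became -0.09 after quantile scaling and -0.01 without Epi zone 4 replicate 1. Wnt7a stood at 1.28, 9.86 and 16.8 RPKM in HGSC and 0, 0.0856 and 1.09 in Epi (2.89, SE 0.28, adjusted p = 4.25e-10). Wnt7b, its closest paralog, stood at 0.0461, 1.2 and 2.48 RPKM in HGSC and 5.83, 8.72 and 23.7 in Epi (-2.43, SE 0.28, adjusted p = 1.57e-08). The paralogs thus differed in opposite directions without overlap of the populations in either. Wnt5a, a ligand of the pathway without beta-catenin, was called higher (1.67) and Wnt3 lower (-2.06). Of 20 receptors, 7 were called higher, among them Fzd1 (1.79), Fzd2 (2.36) and Fzd7 (1.96), and only Fzd10 lower (-1.11), with 5 higher and 2 lower after either scaling. The Fzd10 call was lost, at -0.88 to -0.94, without HGSC zone 1 replicate 1, HGSC zone 3 replicate 2 or Epi zone 2 replicate 2, and with a pseudocount of 0.1 (adjusted p = 0.0534). Of 17 tested inhibitors of 18, 5 were called higher, led by Wif1 (2.98) and Kremen2 (2.66), and Sfrp1 was called lower (-1.41). Their median was 0.09, and -0.0074 after quantile scaling.

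Wnt target genes were mixed. Of 17 tested targets of 18, 8 were called higher and 2 lower, with a median of 0.62 and 7 higher and 2 lower after quantile scaling and 6 and 3 after median-of-ratios scaling. Lef1 is a member of this list and of the hair germ lists, and it carried a label of the sort. Tcf7, a partner of beta-catenin, stood at 42.7, 54.1 and 69.96 RPKM in HGSC and 0.0665, 7.61 and 14.1 in Epi (2.98, SE 0.29, adjusted p = 4.48e-10). Ccnd1, the cyclin of cell cycle entry, stood at 129, 144 and 172 RPKM in HGSC and 42.1, 48.4 and 69 in Epi (1.47, SE 0.18, adjusted p = 2.79e-08). Ascl2, a basic helix-loop-helix factor, went the other way, at 0, 0.0416 and 0.608 RPKM in HGSC and 3.56, 5.49 and 26.8 in Epi (-2.91, SE 0.39, adjusted p = 2.27e-07). Axin2, a feedback inhibitor often read as a general Wnt reporter, was not called, at 23.5, 32.7 and 42.3 RPKM in HGSC and 18.1, 34.6 and 63.5 in Epi (-0.13, SE 0.16, adjusted p = 0.598).

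The TGF-beta family differed by ligand. Of 17 tested ligands of 20, 5 were called higher and 2 lower, with a median of 0.18 and the same counts after quantile and after median-of-ratios scaling. Tgfb2, which opposes BMP signals in the hair germ, stood at 9.23, 13.5 and 19.8 RPKM in HGSC and 0.52, 2.36 and 5.46 in Epi (2.16, SE 0.21, adjusted p = 2.16e-10). Tgfb1 stood at 15.2, 21.4 and 46.1 RPKM in HGSC and 1.78, 4.12 and 7.94 in Epi (2.38, SE 0.32, adjusted p = 1.97e-07). Neither overlapped, and Tgfb3 was called higher as well (1.95). Bmp7 stood at 36.7, 58.3 and 76.7 RPKM in HGSC and 6.05, 15.6 and 19.4 in Epi (1.99, SE 0.22, adjusted p = 3.55e-09). Bmp3, an antagonist-like member of the family, stood at 0.197, 1.08 and 6.79 RPKM in HGSC and 14.5, 23.2 and 38.5 in Epi (-3.31, SE 0.27, adjusted p = 5.42e-12). Of 15 antagonists, 4 were called higher and none lower, with 3 higher and 0 lower after quantile scaling and 2 and 1 after median-of-ratios scaling. Fstl1, a secreted BMP-binding protein, led them at 29.1, 44.4 and 80.5 RPKM in HGSC and 0.545, 1.48 and 6.32 in Epi (4.00, SE 0.20, adjusted p = 5.09e-17). Of 19 receptors and targets, 4 were called higher, led by the repressor Skil (2.37), and the receptors Tgfbr2 (-1.32) and Tgfbr3 (-2.43) were called lower.

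FGF genes were called in both directions, and the called EGF family genes were all lower in HGSC. Of 21 tested FGF genes of 24, 7 were called higher, 2 lower and 12 neither, with a median of 0.03 (-0.05 after quantile scaling) and 7 higher and 2 lower after quantile scaling and 6 and 2 after median-of-ratios scaling. Etv4, an ETS factor induced by FGF signals, stood at 10.8, 23.1 and 29.7 RPKM in HGSC and 0, 0.724 and 2.42 in Epi (3.56, SE 0.33, adjusted p = 1.49e-10). Dusp6, a phosphatase of the same feedback, stood at 21.7, 42.3 and 60.1 RPKM in HGSC and 0.106, 2.18 and 9.13 in Epi (3.49, SE 0.33, adjusted p = 2.04e-10). The receptor Fgfr1 stood at 30.8, 41.3 and 50.8 RPKM in HGSC and 2.92, 6.17 and 21.4 in Epi (2.21, SE 0.25, adjusted p = 9.88e-09). All 3 were without overlap, and the feedback inhibitors Spry1, Spry2 and Spry4 were called higher by 1.5, 1.21 and 1.67. Spry2 fell short of a call after median-of-ratios scaling (0.95) and without Epi zone 4 replicate 1 (0.94). Of 15 tested EGF family genes of 16, none was called higher, 5 were called lower and 10 neither, with a median of -0.60 and the same counts after quantile and after median-of-ratios scaling. The ligand Hbegf stood at 0, 1.84 and 3.98 RPKM in HGSC and 5.26, 12 and 25.2 in Epi (-2.46, SE 0.37, adjusted p = 1.42e-06). Errfi1, a feedback inhibitor of the EGF receptor, stood at 14, 25.1 and 35.7 RPKM in HGSC and 82.5, 118 and 142 in Epi (-2.12, SE 0.23, adjusted p = 3.11e-09). Of 18 tested Notch genes of 20, Lfng was called higher (1.43), and Notch3 (-2.26) and Dll1 (-1.98) lower. The share of Notch genes called did not exceed the 20.7% of all tested genes called (13.3% higher and 7.37% lower).

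**Figure D4:**
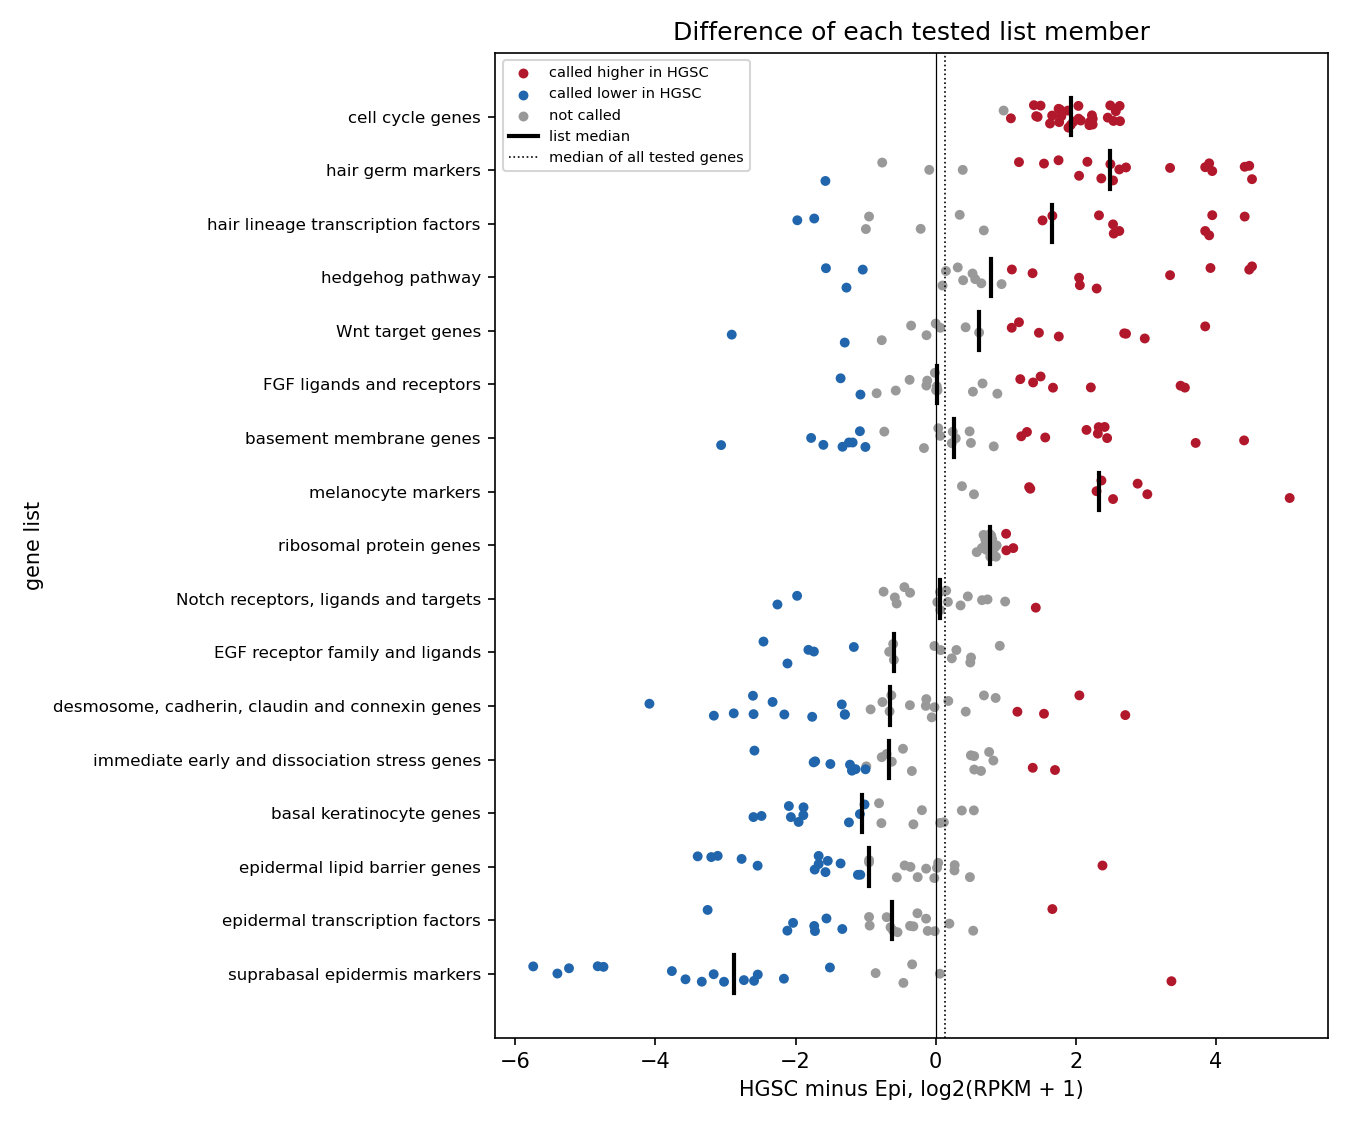
Difference in mean log2(RPKM + 1), HGSC minus Epi, of each tested member of 17 gene lists, with a point per gene, a bar at the list median and a dotted line at the median of all tested genes (0.13). Every cell cycle gene lies to the right of 0, every suprabasal marker except Calml3 and Klk7 lies to the left, and basement membrane genes spread to both sides.

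Cell cycle genes were higher in HGSC almost without exception. Of 31 members, 30 were called higher and none lower, with a median of 1.93 and a range of 0.97 to 2.63, with 29 higher and 0 lower after either scaling. Their summed level was 1261, 1512 and 2011 RPKM in HGSC and 319.9, 409.7 and 564 in Epi. Mki67, the classical proliferation marker, stood at 174, 206 and 330.1 RPKM in HGSC and 38.8, 57.4 and 94.4 in Epi (1.79, SE 0.19, adjusted p = 3.31e-09). Top2a, the topoisomerase of S and G2 phase, stood at 100.3, 129 and 161 RPKM in HGSC and 25.6, 27.1 and 45.9 in Epi (2.04, SE 0.19, adjusted p = 9.69e-11). Neither overlapped between populations. Cdc45, a factor of replication origins, was the 1 member not called, at 0.97 (adjusted p = 0.0075), just short of a difference of 1. Members of both S phase (Mcm2, Pcna, Rrm2) and mitosis (Plk1, Cdc20, Aurkb) were called. Against BuSC, by contrast, HGSC minus BuSC was -0.12 for Aurkb, 0.23 for Ccnb2, 0.38 for Rrm2 and 0.07 for Ccna2. None of these was called (limma adjusted p 0.43 to 0.96), and Epi minus BuSC was -2.75, -2.39, -2.18 and -2.47. Only these members were set against BuSC here, and in them the difference was from Epi and not from the bulge. Among 13 tested cell cycle inhibitors of 14, Cdkn1a, the p21 inhibitor, was called lower, at 21.4, 42.8 and 100.0 RPKM in HGSC and 159, 214 and 259.9 in Epi (-2.16, SE 0.26, adjusted p = 2.28e-08), and Cdkn2c was called higher (1.59). No other inhibitor was called, and the share called did not exceed the 20.7% of all tested genes.

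Since the cell cycle genes moved together, the promoters of 3 mitotic members are shown, with that of Serpinb2, a leading gene of Epi. The stretches hold 250 bases before and 30 bases after the RefSeq start (GRCm38.p6), on the strand of the gene, 5′ to 3′. Capitals mark CCAAT (the NF-Y box), TTTGAA (the cell cycle homology region) and TGANTCA on either strand in all 4. With any base at N, TGANTCA takes in the AP-1 box (TGACTCA or TGAGTCA) and also TGAATCA and TGATTCA, which are not that box.
Ccnb2, chr9:70421525-70421804, minus strand, the mitotic cyclin B2.
Ccnb2: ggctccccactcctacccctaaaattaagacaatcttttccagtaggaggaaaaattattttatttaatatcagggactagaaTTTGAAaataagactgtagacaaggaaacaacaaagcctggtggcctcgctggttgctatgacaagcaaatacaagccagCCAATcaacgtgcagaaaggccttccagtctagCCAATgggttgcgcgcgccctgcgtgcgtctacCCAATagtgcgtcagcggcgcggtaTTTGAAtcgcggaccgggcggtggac
Cdk1, chr10:69352883-69353162, minus strand, the mitotic kinase.
Cdk1: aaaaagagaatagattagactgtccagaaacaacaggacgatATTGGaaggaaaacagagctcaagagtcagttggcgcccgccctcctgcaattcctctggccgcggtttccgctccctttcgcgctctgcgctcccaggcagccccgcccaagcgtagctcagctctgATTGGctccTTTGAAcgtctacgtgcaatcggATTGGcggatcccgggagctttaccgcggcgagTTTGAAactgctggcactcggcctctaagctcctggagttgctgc
Plk1, chr7:122159185-122159464, plus strand, the polo-like kinase of mitosis.
Plk1: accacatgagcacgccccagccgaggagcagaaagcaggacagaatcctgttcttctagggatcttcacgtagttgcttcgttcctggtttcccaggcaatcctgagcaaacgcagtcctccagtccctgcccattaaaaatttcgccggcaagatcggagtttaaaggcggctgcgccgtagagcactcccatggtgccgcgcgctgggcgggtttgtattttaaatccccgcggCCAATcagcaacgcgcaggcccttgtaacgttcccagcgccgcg
Serpinb2, chr1:107511173-107511452, plus strand.
Serpinb2: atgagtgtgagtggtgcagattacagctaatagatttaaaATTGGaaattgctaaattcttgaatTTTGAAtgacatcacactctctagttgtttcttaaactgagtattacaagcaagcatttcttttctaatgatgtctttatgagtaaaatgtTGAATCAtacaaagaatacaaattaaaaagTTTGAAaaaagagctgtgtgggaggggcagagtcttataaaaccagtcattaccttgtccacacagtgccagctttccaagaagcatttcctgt

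Cdk1 stood at 11.6, 21 and 22 RPKM in HGSC and 0.348, 3.8 and 9.43 in Epi (2.04, SE 0.30, adjusted p = 1.18e-06), and its stretch held CCAAT 3 times and TTTGAA 2 times. Plk1 stood at 12, 22.1 and 46.1 RPKM in HGSC and 1.01, 3.97 and 8.27 in Epi (2.45, SE 0.38, adjusted p = 2.43e-06), with 1 CCAAT and no TTTGAA. Ccnb2 stood at 13.6, 40.7 and 365 RPKM in HGSC and 1.11, 7.41 and 14.9 in Epi (2.62, SE 0.44, adjusted p = 1.04e-05), with 3 CCAAT and 2 TTTGAA. The highest Ccnb2 value came from HGSC zone 2 replicate 1, and the other 7 HGSC libraries lay between 13.6 and 64.8 RPKM. TGANTCA was in none of the 3. The Serpinb2 stretch held 1 CCAAT, 2 TTTGAA and 1 TGANTCA, so CCAAT and TTTGAA did not separate it from the mitotic genes, and Plk1 held fewer. The TGANTCA match of Serpinb2 read TGAATCA and so was not the AP-1 box.

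Over the 26 cell cycle genes with a RefSeq promoter entry, 21 held CCAAT (80.8%), against 36.6% of all 27025 promoter stretches of the same length. TTTGAA was found in 10 of 26 (38.5%), against 17.4% of all. The E2F forms TTTGGCGC, TTTCCCGC and TTTCGCGC were found in 2, 2 and 3 of 26. Their shares among all stretches were 0.488%, 1.04% and 0.303%. TGANTCA was found in 4 of 14 suprabasal marker promoters (28.6%), in none of the 26 cell cycle promoters and in 7.57% of all. How many of these matches had C or G at N, as in the AP-1 box, was not counted. The Gli site GACCACCCA was in none of 16 hedgehog promoters (0.229% of all), and the Tcf and Lef site CTTTGAT was in 1 of 11 Wnt target promoters (3.57% of all). All 8 motifs were searched on both strands, and CTTTGAT and TTTGAA share the letters TTTGA. A match describes the letters of the stretch and shows no binding.

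Among the 51 lists examined, suprabasal epidermis markers had the median farthest towards Epi. Of 20 members, 15 were called lower in HGSC and 1 higher, with a median of -2.88 and 1 higher and 16 lower after quantile scaling and 1 and 15 after median-of-ratios scaling. Ly6d, a surface protein of stratifying epithelium, stood at 18.2, 32.9 and 51.8 RPKM in HGSC and 149, 261 and 363 in Epi (-3.02, SE 0.39, adjusted p = 1.40e-07). Calml3, a calmodulin-like protein of keratinocytes, was the exception, at 16.8, 28.9 and 45 RPKM in HGSC and 0.104, 2.14 and 5.66 in Epi (3.36, SE 0.28, adjusted p = 7.92e-12). Neither overlapped between populations. Of 17 tested cornified envelope genes of 35, 3 were called lower, Casp14 (-3.65), Spink5 (-3.31) and Tgm3 (-1.79), and 2 higher, Tgm5 (2.08) and Asprv1 (1.42). Asprv1 was not called after quantile (adjusted p = 0.0695) or median-of-ratios scaling (0.0653), in the 16 libraries alone (0.108), or without HGSC zone 1 replicate 1, HGSC zone 3 replicate 1, or Epi zone 1 replicate 2, zone 2 replicate 2 or zone 3 replicate 1 (0.0791 to 0.105). Of 27 genes of the epidermal lipid barrier, 13 were called lower and 1 higher, with a median of -0.95 and 1 higher and 15 lower after either scaling. Abca12, the lipid transporter of lamellar granules, stood at 0.269, 1.74 and 4.11 RPKM in HGSC and 20.7, 27.1 and 36.3 in Epi (-3.40, SE 0.22, adjusted p = 4.26e-14). Degs2, a ceramide-modifying enzyme, was the 1 called higher, at 2.19, 5.03 and 10.4 RPKM in HGSC and 0, 0.103 and 0.916 in Epi (2.38, SE 0.30, adjusted p = 9.66e-08).

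The called genes of basal keratinocytes were all lower in HGSC. Of 18 members, Krt14 of the sort's reporter included, none was called higher, 10 lower and 8 neither, with a median of -1.05 and 0 higher and 9 lower after quantile scaling and 0 and 12 after median-of-ratios scaling. Krt5 stood at 1183, 1437 and 1905 RPKM in HGSC and 3491, 5664 and 7554 in Epi (-1.89, SE 0.27, adjusted p = 7.37e-07), a call that was lost after quantile scaling, at -0.84. Col17a1, the transmembrane collagen of hemidesmosomes, stood at 59.4, 98.2 and 165 RPKM in HGSC and 401, 616 and 697 in Epi (-2.49, SE 0.19, adjusted p = 8.60e-13). Dst, which ties keratin to the hemidesmosome, stood at 21.7, 33.2 and 46.3 RPKM in HGSC and 143, 225 and 297 in Epi (-2.60, SE 0.11, adjusted p = 1.30e-18). Itga6, the integrin of the same structure, stood at 29.8, 36.9 and 46.3 RPKM in HGSC and 83.5, 154 and 191 in Epi (-1.89, SE 0.17, adjusted p = 3.88e-11). None of these overlapped. The integrin chain Itgb1 was not called, at 0.54 (adjusted p = 0.00107). Among keratins of the outer root sheath and companion layer, Krt17 was called higher, at 257 ± 23.8 RPKM in HGSC and 78 ± 42.6 in Epi (1.86, SE 0.30, adjusted p = 5.91e-06), and Krt15, used as a bulge marker, lower, at 591 ± 216 RPKM in HGSC and 2270.0 ± 632 in Epi (-1.96, SE 0.31, adjusted p = 4.18e-06).

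Basement membrane genes divided by chain. Of 28 members, 10 were called higher and 8 lower in HGSC, with a median of 0.26 and 10 higher and 8 lower after quantile scaling and 9 and 8 after median-of-ratios scaling. The Fras1 partner Frem1 stood at 7.35, 21.5 and 29.8 RPKM in HGSC and 0.0666, 0.315 and 3.31 in Epi (3.71, SE 0.24, adjusted p = 3.43e-14), and Frem2 was called higher by 2.15. Npnt, the nephronectin that binds integrin alpha-8, stood at 80.9, 104 and 145 RPKM in HGSC and 11, 22.5 and 31.3 in Epi (2.33, SE 0.15, adjusted p = 3.50e-14). Collagen IV chains Col4a1 and Col4a2 were called higher by 2.31 and 2.45, and Col4a5 and Col4a6 lower, at -1.60 and -1.33. Laminin chains Lamb1, Lamc1 and Lama5 were called higher by 2.41, 1.30 and 1.22, although Lama5 fell short after median-of-ratios scaling (0.96). Lama1 stood at 0, 0.0863 and 1.57 RPKM in HGSC and 1.8, 12.7 and 19.2 in Epi (-3.06, SE 0.24, adjusted p = 1.98e-12), and the laminin-332 chains Lama3 and Lamb3 were called lower, at -1.24 and -1.08. Lamb3 fell short without Epi zone 3 replicate 2, at -0.95.

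Cell junction genes were lower on balance. Of 28 members, 4 were called higher and 11 lower, with a median of -0.65 and 3 higher and 12 lower after either scaling. Desmoplakin (Dsp) stood at 91.6, 123 and 166 RPKM in HGSC and 506, 655 and 709 in Epi (-2.33, SE 0.22, adjusted p = 2.48e-10). E-cadherin (Cdh1) stood at 32.9, 70.5 and 95.2 RPKM in HGSC and 178, 211 and 286 in Epi (-1.76, SE 0.19, adjusted p = 2.90e-09), opposite in direction to the P-cadherin Cdh3. The populations did not overlap in either cadherin. The connexin Gjb5 stood at 0, 0.952 and 4.16 RPKM in HGSC and 16.3, 33 and 45.7 in Epi (-4.09, SE 0.36, adjusted p = 2.70e-11). The connexin Gjb2 stood at 12.3, 23.4 and 36.1 RPKM in HGSC and 0.031, 2.2 and 17.2 in Epi (2.70, SE 0.35, adjusted p = 1.20e-07), and the populations overlapped. Connexin genes thus differed in both directions.

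The called antimicrobial, alarmin and early response genes were mostly lower in HGSC. Of all tested genes 20.7% were called (13.3% higher and 7.37% lower in HGSC), and the share of antimicrobial and alarmin genes called was near that. Of 19 tested antimicrobial and alarmin genes of 25, none was called higher, 4 lower and 15 neither, with 0 higher and 5 lower after either scaling. Il1rn, the interleukin 1 receptor antagonist, stood at 0.0505, 0.783 and 3.34 RPKM in HGSC and 25.3, 36.6 and 69.9 in Epi (-4.46, SE 0.26, adjusted p = 2.66e-15). The alarmin Il33 stood at 1.72, 4.54 and 13.8 RPKM in HGSC and 22.3, 47.4 and 67.7 in Epi (-3.08, SE 0.24, adjusted p = 2.23e-12). Of 22 tested immediate early and dissociation stress genes of 23, 2 were called higher, 8 lower and 12 neither, with a median of -0.66 and 2 higher and 9 lower after quantile scaling and 2 and 10 after median-of-ratios scaling. Dusp1, a phosphatase induced by stress, stood at 57.5, 91.7 and 123 RPKM in HGSC and 392, 523 and 729.5 in Epi (-2.59, SE 0.16, adjusted p = 1.10e-14). Egr1, an immediate early factor, stood at 138, 233 and 361 RPKM in HGSC and 543, 771 and 1039.5 in Epi (-1.72, SE 0.22, adjusted p = 6.80e-08). The chaperone gene Hsp90aa1 went the other way, at 119, 149.6 and 200.5 RPKM in HGSC and 35.6, 46.1 and 58.4 in Epi (1.70, SE 0.13, adjusted p = 2.82e-12). These genes respond to tissue dissociation as well as to signals in the tissue, and the part of cell isolation in their difference was not tested.

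Metabolic lists held strong single genes. Beside them, 20.7% of all tested genes were called (13.3% higher and 7.37% lower in HGSC), and the share of fatty acid synthesis genes called was near that. Of 14 fatty acid synthesis genes, 3 were called higher and none lower, with 3 higher and 1 lower after either scaling. Fads1, a desaturase of polyunsaturated fatty acids, stood at 22.8, 35 and 63.7 RPKM in HGSC and 0.0923, 1.51 and 11.2 in Epi (3.72, SE 0.27, adjusted p = 3.93e-13). Scd2, a stearoyl-CoA desaturase, stood at 40.03, 68.8 and 87.3 RPKM in HGSC and 2.25, 8.13 and 15.6 in Epi (3.04, SE 0.16, adjusted p = 9.29e-17), and Fads2 was called as well (3.07). The synthase Fasn differed by 0.18 (adjusted p = 0.421) and was not called. Of 19 tested glycolysis genes of 20, 2 were called higher and 4 lower, and the hexokinases differed in direction, with Hk2 at 1.87 and Hk1 at -1.63. Slc2a1, the glucose transporter, averaged 11.7 ± 7.41 RPKM in HGSC and 54.5 ± 18.3 in Epi (-2.26, SE 0.25, adjusted p = 5.18e-09). Of 20 ribosomal protein genes, 3 were called higher, a share near the 13.3% of all tested genes, with a median of 0.78. After quantile scaling 1 was called higher and 0 lower, and after median-of-ratios scaling 0 and 0. Leaving out 1 library gave 0 to 5 calls among these genes. With differences of any size, all 20 were higher at an adjusted p under 0.05 on the deposited values, beside 23.5% of all tested genes.

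Guidance molecules differed strongly in single members. Of 36 semaphorin, ephrin and Slit pathway genes, 7 were called higher and 6 lower, with a median of 0.09 (-0.03 after quantile scaling) and 6 higher and 6 lower after either scaling. Sema3d stood at 0.219, 1.13 and 5.59 RPKM in HGSC and 39.3, 47.4 and 87.4 in Epi (-4.47, SE 0.27, adjusted p = 4.96e-15). Sema3f, a secreted ligand of neuropilin 2, stood at 1.02, 2.28 and 6.58 RPKM in HGSC and 24, 43.9 and 52.4 in Epi (-3.60, SE 0.20, adjusted p = 7.43e-16). Nrp2, that receptor, stood at 80.9, 121 and 152 RPKM in HGSC and 3.67, 11.3 and 25.5 in Epi (3.21, SE 0.19, adjusted p = 3.49e-15). The ligand was thus low where the receptor was high, and none of the 3 genes overlapped between populations.

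Markers of other cell types were read in both populations. Of 10 tested melanocyte markers of 11, 8 were called higher in HGSC and none lower, with a median of 2.33, and the counts stayed at 8 and 0 under every alternative. Their summed level was 49.7, 115 and 202 RPKM in HGSC and 9.61, 18.2 and 20.9 in Epi. Beside Dct, Tyr, the rate-limiting enzyme of melanin synthesis, stood at 1.58, 4.68 and 15.8 RPKM in HGSC and 0, 0 and 0.0336 in Epi (2.53, SE 0.27, adjusted p = 2.37e-09). Kit, the receptor of melanocyte survival, stood at 0.987, 5.34 and 9.93 RPKM in HGSC and 0, 0.0149 and 0.052 in Epi (2.36, SE 0.33, adjusted p = 4.59e-07). Pmel, a protein of pigment granules, and Mitf were not called and overlapped, at 0.37 and 0.55. The labels give no gate against melanocytes, and the part of melanocytes in the HGSC values was not tested.

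Marker sums of T cells, endothelium and dermis overlapped between populations, and those of Langerhans cells and macrophages and of smooth muscle and pericytes were higher in every HGSC library than in any Epi library. T cell marker sums were 1.41, 6.16 and 22 RPKM in HGSC and 0.352, 0.78 and 15.5 in Epi, and endothelial sums were 0.744, 5.89 and 14.3 in HGSC and 0.499, 1.27 and 2.55 in Epi, with no called member in either list. Dermal papilla sums were 53.9, 82.4 and 92.4 RPKM in HGSC and 18.7, 63 and 109.7 in Epi, and dermal fibroblast sums 94.4, 225 and 413 in HGSC and 85.8, 135 and 330.2 in Epi, so both lists overlapped between populations. Among the dermal markers, Dcn (2.28) and Col5a1 (2.19) were called higher in HGSC and Dpp4 (-1.30) lower, while the papilla marker Sox2 was at 0 in all 16 libraries. Dcn was not called in the fit to recovered reads (adjusted p = 0.277). Langerhans cell and macrophage sums were 83.2, 129 and 169 RPKM in HGSC and 29.5, 51.6 and 79.1 in Epi. Of their 15 markers, 3 were called higher in HGSC and none lower, a share near the 20.7% of all tested genes called (13.3% higher and 7.37% lower). Of the 3, Epcam, also an epithelial gene, made most of the sum in HGSC, at 100 ± 19.3 RPKM in HGSC and 28.5 ± 12.5 in Epi. Of 9 tested class II antigen presentation genes of 10, 3 were called higher, but their sums overlapped, 1 to 3 were called when a single library was left out, and none was called when the fit held only the 16 HGSC and Epi libraries.

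Smooth muscle and pericyte sums were 50.3, 65.6 and 83.8 RPKM in HGSC and 5.13, 26.4 and 48.8 in Epi. Of 11 markers, 4 were called higher in HGSC and 1 lower, with 2 higher and 1 lower after either scaling, and 2 to 4 higher and 0 to 2 lower when a single library was left out. Cspg4, a proteoglycan also known from melanoma cells, made most of the HGSC sum, at 36.3 ± 3.91 RPKM in HGSC and 6.52 ± 4.63 in Epi (2.66, SE 0.26, adjusted p = 4.03e-10). The adhesion molecule Mcam was called higher by 2.22, and Myh11 and Rgs5 by 1.06 and 1.17, while Cnn1 was called lower (-1.56). The contractile genes Acta2 and Tagln averaged 1.67 and 2.67 RPKM in HGSC and 3.71 and 5.69 in Epi, and were not called. The part of any of these cell types in the HGSC values was not tested.

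The comparison was last set against zone. The HGSC minus Epi difference varied between zones in 10 of 16731 genes (0.0598%) by limma's moderated F test with adjusted p under 0.05, and in 1607 genes (9.6%) at an unadjusted p under 0.05. None of the 10 passed in a fit of the 16 HGSC and Epi libraries alone or in a fit to the recovered reads, where 5 and 8 genes passed. The count was 273 without Epi zone 3 replicate 2, 144 without Epi zone 4 replicate 2 and 99 without Epi zone 1 replicate 2, and 9 to 80 without any other library. Each zone has 2 libraries per population, so the zone results rest on pairs of libraries.

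Igfbp3, a binding protein of insulin-like growth factors, was lower in HGSC in every zone, with differences of -5.75, -4.98, -4.78 and -2.30 from zone 1 to zone 4 on the log2 scale (adjusted p of F = 0.007). Its HGSC libraries held 15.5 and 14.8 RPKM in zone 4 and at most 4.15 in the other zones, and its Epi libraries held 159 and 176 in zone 1 and 84.8 and 73.1 in zone 4. Arhgef25, an exchange factor for small GTPases, differed by -1.22, 2.65, 3.82 and 2.69 (adjusted p of F = 0.0139). Its Epi libraries held 3.18 and 15.6 RPKM in zone 1 and less than 1 elsewhere. Bfsp2, a filament protein known from the eye lens, differed by -4.01, -1.73, -1.02 and -0.74 (adjusted p of F = 0.0139). Its Epi libraries held 11.6 and 20.4 RPKM in zone 1 and 0.966 and 0.848 in zone 4, with at most 0.391 in any HGSC library. S100a6, a calcium-binding protein, differed by -1.31, -0.58, -1.26 and 1.05 (adjusted p of F = 0.0146). Its HGSC libraries held 139 and 149 RPKM in zone 4, above all other HGSC libraries, while the Epi libraries of that zone held 58.5 and 81.2. Arhgef25 did not pass without HGSC zone 1 replicate 2 (adjusted p = 0.0974) or Epi zone 1 replicate 2 (0.0605), Bfsp2 without HGSC zone 1 replicate 2 (0.0665) or with a pseudocount of 0.1 (0.402), and S100a6 without HGSC zone 4 replicate 1 or 2 or Epi zone 4 replicate 1 (0.0725 to 0.0733).

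**Figure D5:**
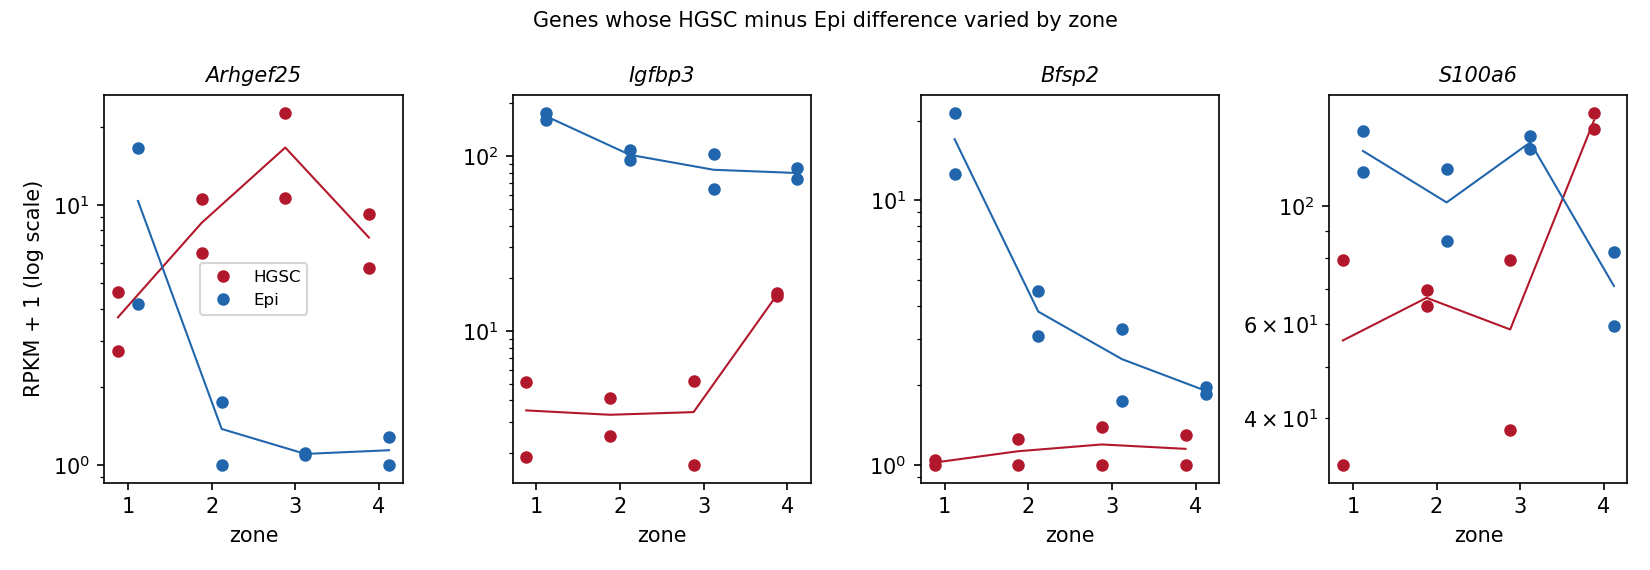
Level of 4 genes by zone, as RPKM + 1 on a log scale, with a point per library and a line through the zone means, HGSC in red and Epi in blue. Among Epi libraries, Arhgef25 and Bfsp2 are highest in zone 1, while the highest Arhgef25 library is of HGSC zone 3. Igfbp3 is lower in HGSC in every zone, and S100a6 is higher in HGSC than in Epi in zone 4 only.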

How the data were processed

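Bulk RNA-seq of sorted back skin populations was deposited by the authors as RPKM per gene, scaled to gene length and library total. The submitters' processing notes name STAR 2.4.0, featureCounts, limma, edgeR, DESeq2 and mm10. The sources used here do not give filters before deposit or whether the kit kept strand, so antisense partners cannot be separated. All columns were matched to samples by name. Of 22233 genes above 0, 22232 came out as whole reads within 0.02, which gave the depths, and these reads were used in a voom fit as an alternative.

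Tests used limma 3.58.1 in R 4.3.3 on log2(RPKM + 1), for 16731 genes with RPKM of at least 1 in at least 2 of the 56 libraries. The model had 28 group means, a shared variance with abundance trend and 28 residual degrees of freedom. The contrast was the mean of 4 HGSC zones minus that of 4 Epi zones, two-sided, with Benjamini-Hochberg adjustment over all tested genes. Zones were compared by a moderated F test. P-values set a difference against the spread between replicates within zones. That spread was pooled over all 28 groups of the 56 libraries, other populations included, and is not that of HGSC and Epi alone. The method was tested on simulated data, with a common spread for all genes and equal numbers of changes in both directions. Such data cannot test how scaling moves the balance of directions.

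Members and the 51 gene lists were chosen with earlier results of these data known. Named by rule were the 12 genes in each direction with the largest difference among called genes with the same sign in 8 of 8 pairs and a mean of at least 10 RPKM in the higher population, the 4 leading zone genes in each direction with a mean of at least 5 RPKM, and up to 4 leading members of each list; other members were named after their values were seen. Of the 12 genes lower in HGSC 1 is not reported here, nor are some list members, though the counts include them. Alternatives were pseudocount, filters, quantile and median-of-ratios scaling, the 16 libraries alone, recovered reads, a replicate block and leaving out each library. Locations are from GENCODE M21 and promoters from RefSeq (GRCm38.p6).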

Additional observations from a re-analysis of the deposited data

Results flagged for a closer look

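In 232 groups of 8 libraries (genes with values by library in the text, and summed marker lists), 13 held a library whose gap to its nearest neighbour was large against the group's whole range by Dixon's criterion. Chance marks about 1 in 20 groups. In HGSC, zone 3 replicate 1 held 27.9 RPKM of Gli2 (other HGSC libraries 36.3 to 45.1). HGSC zone 2 replicate 1 held 14 RPKM of Errfi1 (23.1 to 35.7) and 365 of Ccnb2 (13.6 to 64.8). HGSC zone 4 replicate 1 held 7.35 RPKM of Frem1 (16.9 to 29.8), and HGSC zone 1 replicate 1 a dermal papilla marker sum of 53.9 (72.6 to 92.4).

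In Epi, zone 1 replicate 1 stood apart in 4 genes, with 197.5 RPKM of Serpinb2 (67.0 to 89.7), 15.3 of Cdon (28.8 to 46.3), 0.0665 of Tcf7 (4.53 to 14.1) and 36.6 of Notch3 (14.3 to 22.3). Epi zone 2 replicate 1, which also had the highest hair germ marker sum of Epi, stood apart in 3 genes that were higher in HGSC, with 5.03 RPKM of Basp1 (0 to 1.02), 188 of Pdgfa (60.7 to 101) and 3.31 of Frem1 (0.0666 to 0.869). Epi zone 4 replicate 1 held 7.21 RPKM of Shh (0 to 1.51). All of these genes except Cdon and Ccnb2 were without overlap between populations, and each kept its call when any 1 library was left out.

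For 10 genes the HGSC minus Epi difference varied between zones by limma's moderated F test. The change of that difference, zone 4 minus zone 1, was 3.45 for Igfbp3, 3.91 for Arhgef25, 3.27 for Bfsp2, 2.36 for S100a6, 1.85 for Creg1, 2.20 for Mir6361 and 0.83 for Krtap12-1. It was -2.72 for Mnd1-ps, -1.71 for Catsper4 and -2.88 for Rpl3l. Rpl3l rested on a single Epi library of zone 4, with 21.2 RPKM beside 1.46 in its replicate.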

How the results depend on the processing

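Signs were compared for the named genes and list members only. Among these, no gene called on the deposited values or under an alternative changed sign under that alternative. Genes not called in either changed sign in 408 of 21807 combinations with a setting. These combinations also held counts of called list members, which cannot change sign. The medians of 14 of 51 lists changed sign in 29 of 1224 combinations, all with a reported median within 0.13 of 0. Called genes were more often higher than lower in HGSC except after median-of-ratios scaling (1509 higher and 1526 lower). Counts of called genes stayed within 1.5 times, at 3071 higher and 1456 lower in HGSC with a pseudocount of 0.1, 3092 and 1454 in a fit to recovered reads (voom), 1963 and 1099 in the 16 HGSC and Epi libraries alone, and 2079 to 2425 higher and 1179 to 1332 lower when 1 library was left out. The median over all tested genes was 0.30 with a pseudocount of 0.1, 0.0084 with no filter on low values, 0.013 after quantile scaling, 0.023 after median-of-ratios scaling and 0.34 on recovered reads. The count of genes that differed between zones (10) was 36 with a pseudocount of 0.1, 34 with no filter, 5 when 8 libraries had to reach an RPKM of 1, 18 after quantile scaling and 5 in the 16 libraries alone. It was 9 to 273 when 1 library was left out, and stayed at 9 to 12 only without HGSC zone 2 replicate 1, HGSC zone 4 replicate 1 or 2, or Epi zone 3 replicate 1. The cause was not tested. Over all tested genes, same-numbered replicates of HGSC and Epi did not deviate together (correlations of -0.019 to 0.030 by zone). This cannot show whether they share animals or a batch. Class II antigen presentation sums were higher in replicate 1 than in replicate 2 in every zone of both populations. With the replicate block, 2232 genes were higher, 1233 lower and 11 differed between zones. A call was lost in 309 and gained in 340 of 22042 combinations of a setting with a gene, a zone test or a count of called list members. Among lists, counts of 1 to 5 called members often moved by over 1.5 times without 1 library. Depth of 8.61 M reads in the shallowest HGSC library limits genes near 0, for which the difference depends on the pseudocount.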

Other observations

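The retinoid and chemokine lists held calls in both directions, beside 20.7% of all tested genes called (13.3% higher and 7.37% lower in HGSC). Of 18 tested retinoid genes of 19, Crabp1 of the sort's reporter among the members, 2 were called higher and 3 lower, a share near that background. Stra6, the receptor for retinol uptake, was called higher, at 2.07, 9.58 and 73.2 RPKM in HGSC (lowest, median and highest) and 0, 0.528 and 3.21 in Epi (log2 difference 2.88, SE 0.34, adjusted p = 1.56e-08), as was the receptor Rara (1.55). The retinol-binding Rbp2 (-2.02), the retinal dehydrogenase Aldh1a1 (-1.58) and the reductase Dhrs3 (-1.29) were called lower. The list's median was -0.08 (0.0051 without Epi zone 2 replicate 1), with the same counts after quantile and after median-of-ratios scaling. Among 20 tested chemokines and receptors of 22, Cxcl12 averaged 13.3 ± 3.69 RPKM in HGSC and 1.98 ± 2.1 in Epi (2.43, SE 0.29, adjusted p = 3.06e-08), and its receptor Cxcr4 was called higher too (1.52). Ackr3, a scavenger of the same ligand, was called lower (-1.88). The skin chemokine Ccl27a averaged 12.4 ± 7.86 RPKM in HGSC and 68.9 ± 23.3 in Epi (-2.52, SE 0.27, adjusted p = 2.82e-09), and the scavenging receptor Ackr4 8.28 ± 4.69 in HGSC and 48.4 ± 9.65 in Epi (-2.57, SE 0.22, adjusted p = 2.93e-11). In this list 4 were called higher and 5 lower, with 3 higher and 5 lower after either scaling.

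Early hair shaft and inner root sheath keratins were detected at low levels in HGSC. Of 23 genes in that list only 9 passed the filter on low values, and 3 were called higher. Krt35, an early keratin of the hair shaft, averaged 6.75 ± 4.00 RPKM in HGSC and 0.0116 ± 0.0327 in Epi (2.76, SE 0.28, adjusted p = 9.98e-10). Krt28 averaged 6.46 ± 1.57 RPKM in HGSC and 0.271 ± 0.492 in Epi (2.60, SE 0.20, adjusted p = 1.73e-12), and Krt27 5.93 ± 3.00 in HGSC and 0.358 ± 0.594 in Epi (2.33, SE 0.30, adjusted p = 1.21e-07), both keratins of the inner root sheath. Of 15 upper follicle and sebaceous markers, 4 were called lower in HGSC and none higher, among them Acsbg1, an acyl-CoA synthetase (-2.81), and Ly6a, a surface protein also known as Sca-1 (-2.78). Edar, the ectodysplasin receptor of hair placodes, averaged 15.1 ± 4.75 RPKM in HGSC and 2.52 ± 2.18 in Epi (2.36, SE 0.27, adjusted p = 9.99e-09). Tnfrsf11a, the receptor RANK of the same list of 10, averaged 0.872 ± 0.966 RPKM in HGSC and 11.2 ± 5.85 in Epi (-2.69, SE 0.34, adjusted p = 6.26e-08).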
